A study of Mus musculus with 2 samples.

Results

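The elastic fibre genes described here are Eln, Fbn1, Fbln1, Fbln2, Fbln5, Efemp2, Ltbp4, Mfap4, Lox and Loxl1, 10 of the 43346 gene rows quantified in adult mouse lung. They were taken by gene symbol, and their 46 annotated transcripts came from 103639 in all. Polyadenylated RNA longer than 200 nt was sequenced in stranded paired-end reads of 76 nt, with synthetic spike-in RNA added, from 2 lung libraries of C57BL/6J mice 8 weeks old. Each library pooled tissue of male and female littermates, and the mice carried no treatment or engineered allele that the labels name. The labels call the libraries biological replicates 1 and 2 of 1 group, list 1 donor record for both but a tissue sample for each, and leave the number of animals unsaid. The design therefore holds no comparison between conditions. Levels are given per library and as mean ± SD of n = 2, in TPM, a share of all transcripts that is corrected for transcript length, and part of the spread between libraries may be technical.

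An elastic fibre has a core of cross-linked elastin laid on a scaffold of fibrillin microfibrils. Elastin is secreted as the soluble monomer tropoelastin, is brought to the microfibril by fibulins and a latent TGF-beta binding protein, and is then joined through its lysines by copper-dependent lysyl oxidases. In the lung these fibres run through the alveolar entrance rings, the airways and the vessels and give the tissue its recoil. Most elastin is laid down around birth and during alveolar growth, and the protein turns over very slowly in adults.

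The libraries held 48234745 and 44182836 expected counts on gene rows in replicates 1 and 2. They stand apart in RNA of other tissues. All 5 squamous epithelium markers (from Krt13, the highest, to Krt6a, the lowest) were higher in replicate 1, with summed levels of 4043 TPM in replicate 1 and 0.59 TPM in replicate 2, where 2 of them were at 0. All 8 skeletal muscle markers (Acta1 highest, Myh2 lowest) were also higher in replicate 1, with sums of 2829 and 60.5 TPM in replicates 1 and 2 and 3 markers at 0 in replicate 2. All 5 erythroid markers (Hba-a2 highest, Alas2 lowest) were higher in replicate 2, with sums of 22915 and 63391 TPM in replicates 1 and 2. Both carried the markers of lung: all 6 alveolar epithelium markers, from Sftpc, the highest, to Lamp3, the lowest, were above 1 TPM. The 6 markers of cartilage, another tissue rich in matrix, summed to 2.95 and 1.82 TPM in replicates 1 and 2, and none, from Sox9 to Matn3, reached 1 TPM in both.

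All 10 elastic fibre genes were expressed above 1 TPM in both libraries, among 13855 genes that were. Together they made up 2383 TPM in replicate 1 and 2523 TPM in replicate 2, or 2453 ± 98.5 TPM. Mfap4 and Ltbp4, a pair of genes for microfibril-associated proteins, took 68.8% ± 1.74 of that sum, while Eln and Fbn1, the genes for the named building blocks of core and microfibril, stood at ranks 4 and 10 in order of level.

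**Figure D1:**
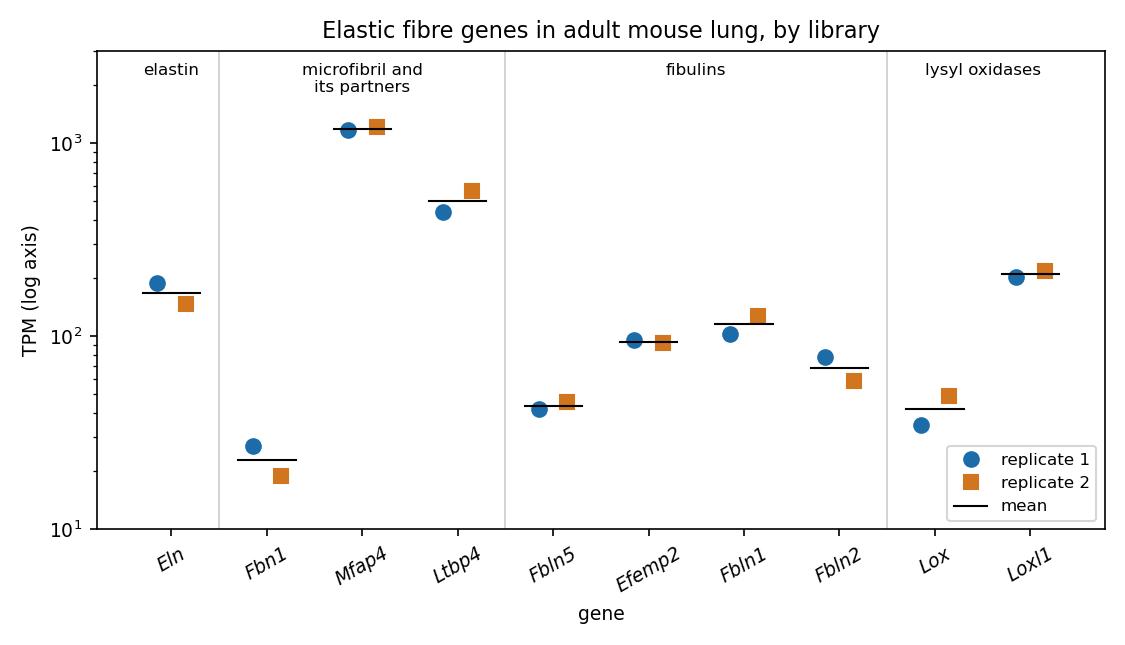
TPM (log axis) of the 10 elastic fibre genes, grouped by role, in replicate 1 (circles) and replicate 2 (squares) of adult lung, with the mean of both as a line. Mfap4 is highest at 1187 TPM on average and Fbn1 lowest at 22.95 TPM. Among neighbours in order of level, the ranges over the libraries overlap only for Fbln5 and Lox.

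Eln encodes tropoelastin (mm10 chr5:134702593-134747323, minus strand). It had 189 TPM in replicate 1 and 147 TPM in replicate 2, from 16242 and 12312 counts, with a mean of 168 ± 29.97 TPM. It ranked 758 by mean TPM among the genes detected in both libraries. The quantified model of Eln-201, its only transcript in the files, was 2583 nt long, the length of its coding sequence of 860 codons with the stop. It held none of the untranslated sequence that a later annotation gives this transcript, so reads from that sequence could not be assigned to it.

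Elastin's composition is unlike that of the other genes. Glycine codons made up 36.3% of Eln-201, a higher share than in 99.9% of 21504 coding genes, whose median was 6.03%. Alanine took 21.0%, proline 10.9% and valine 8.60%. Cysteine took 0.233%, against a median of 2.13% over the coding genes. All 35 internal coding exons are whole multiples of 3 bases long, so that any of them can be left out without a shift of frame, while 40.9% of the internal coding exons of all genes are. The 2 exons below show a glycine-rich and a lysine-rich stretch. Exon 31 (chr5:134707510-134707650, minus strand of mm10) has the highest glycine share of the exons with at least 15 whole codons, and its 28 glycine codons are in capitals. Exon 20 (chr5:134716992-134717045, minus strand) has the highest lysine share of the same exons, and its 3 lysine codons, the residues that lysyl oxidases act on, are in capitals among 10 alanine codons.
Eln exon 31: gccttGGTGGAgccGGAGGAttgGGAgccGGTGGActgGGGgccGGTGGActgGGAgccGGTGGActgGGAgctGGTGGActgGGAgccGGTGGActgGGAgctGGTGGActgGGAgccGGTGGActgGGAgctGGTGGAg
Eln exon 20: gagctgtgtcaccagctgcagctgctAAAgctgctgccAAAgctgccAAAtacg

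Of the 37 coding exons of Eln, 18 hold the 38 lysine codons and 19 hold none. None of the 12 exons with more than 40% glycine codons holds a lysine codon. The exons richest in glycine and the exons with lysine were thus separate.

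**Figure D2:**
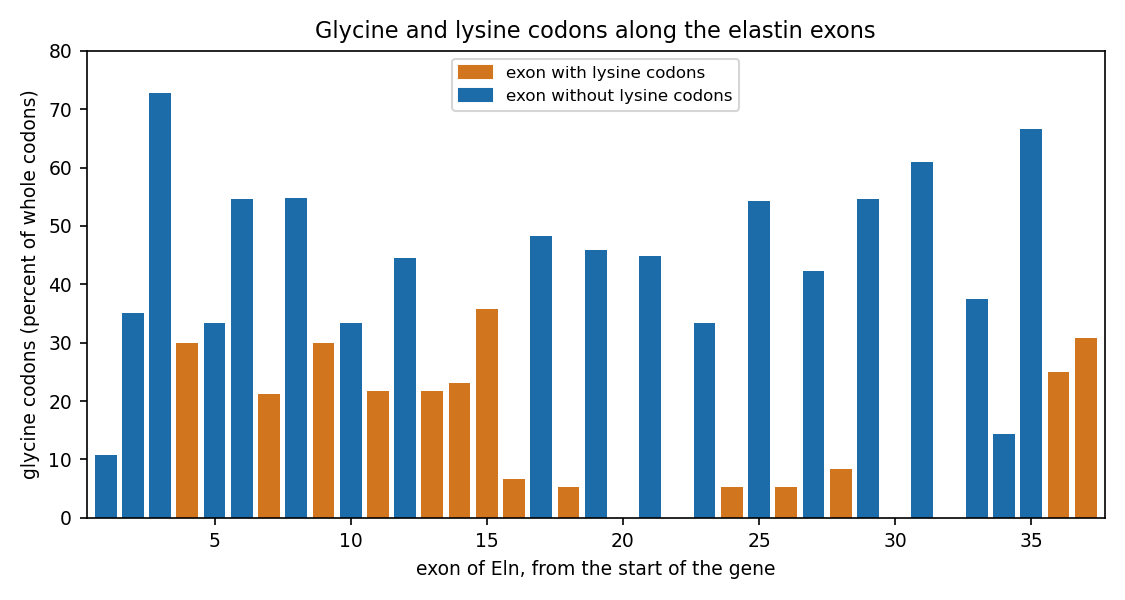
Share of glycine among the whole codons of each exon of Eln-201 (percent), by exon number from the start of the gene, with the exons that hold lysine codons in orange and those that hold none in blue. All 12 exons above 40% glycine are blue, and exons 20, 22, 30 and 32, which hold lysine codons but no glycine codon, have no bar.

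The microfibril is represented by Fbn1, which encodes its main structural protein fibrillin-1, and by 2 genes whose proteins bind to it. Fbn1 (chr2:125300594-125507993, minus strand) is the gene altered in human Marfan syndrome. It had 27.1 TPM in replicate 1 and 18.8 TPM in replicate 2, from 9175 and 5958 counts, and its mean of 22.95 ± 5.83 TPM was the lowest of the 10 genes. Eln exceeded it by 7.0 times in replicate 1 and 7.81 times in replicate 2.

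Mfap4 (chr11:61485431-61488900, plus strand) encodes microfibril-associated protein 4, a small secreted protein with a fibrinogen-like domain that binds elastin, fibrillin and integrins. It had 1171 TPM in replicate 1 and 1204 TPM in replicate 2, from 61671 and 62677 counts, and ranked 64 among the genes detected in both libraries. Its level was 6.18 times that of Eln in replicate 1 and 8.19 times in replicate 2. Mapk7 overlaps Mfap4 on the opposite strand and had 35.5 and 37.0 TPM in replicates 1 and 2. The sources used here do not say how the authors' counting treated strand, so reads of overlapping genes may have been shared between them.

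Ltbp4 (chr7:27305136-27337692, minus strand) encodes latent TGF-beta binding protein 4, which helps deposit elastin with fibulin-5 and holds latent TGF-beta in the matrix. Mice without its short form develop enlarged airspaces. It had 440.1 TPM in replicate 1 and 563 TPM in replicate 2, from 67005 and 80420 counts, the most counts of any of the 10 genes. With a mean of 501 ± 86.7 TPM it ranked 210 among detected genes, and it exceeded Eln by 2.32 times in replicate 1 and 3.83 times in replicate 2.

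Nearly all Ltbp4 counts fell on the short form. The short transcript Ltbp4-205 took 98.3% of the gene's counts in replicate 1 and 97.9% in replicate 2, which was 84.4% and 80.9% of its TPM. The long transcript Ltbp4-201 had 154 and 107 counts in replicates 1 and 2, or 0.19% and 0.10% of the TPM. The forms share 4550 coding bases and differ at the start, where 250 coding bases belong to Ltbp4-205 alone and 448 to Ltbp4-201 alone. Their annotated starts lie 4029 bases apart, and the sequences before these starts are shown. Any link between these sequences and the division of the counts was not tested. Both windows are from RefSeq on GRCm38.p6 (mm10), run from 250 bases before a RefSeq start to 50 after it, and are written 5′ to 3′ on the minus strand of the genome, the strand of the gene. Capitals mark GC boxes, the motif GGGCGG on either strand with overlapping matches counted, to which Sp1 family factors can bind. The window at the short form is chr7:27333614-27333913 and that at the long form is chr7:27337563-27337862, whose RefSeq start lies within the first exon of Ltbp4-201.
Short form: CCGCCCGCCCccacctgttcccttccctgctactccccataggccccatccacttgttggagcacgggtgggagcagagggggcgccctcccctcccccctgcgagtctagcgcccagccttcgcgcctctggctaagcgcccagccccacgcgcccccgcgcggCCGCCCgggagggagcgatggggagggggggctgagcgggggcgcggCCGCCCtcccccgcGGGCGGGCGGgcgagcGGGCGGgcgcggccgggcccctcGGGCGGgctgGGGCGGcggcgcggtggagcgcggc
Long form: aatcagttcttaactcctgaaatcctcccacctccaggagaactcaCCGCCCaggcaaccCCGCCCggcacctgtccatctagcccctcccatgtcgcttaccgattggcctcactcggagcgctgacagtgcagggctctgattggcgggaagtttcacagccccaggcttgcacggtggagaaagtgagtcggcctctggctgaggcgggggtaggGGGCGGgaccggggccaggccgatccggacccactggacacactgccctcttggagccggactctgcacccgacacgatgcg

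The short-form window holds 9 GC boxes and 81.3% G and C, and the long-form window holds 3 and 64.3%. A second RefSeq window at the short form, chr7:27333599-27333898, overlaps the first and holds 7 GC boxes and 80.3%. At least 1 GC box was found in 35.7% of 32851 RefSeq promoters, at least 3 in 10.7%, at least 7 in 0.627% and at least 9 in 0.125%. Of the 12 promoter windows that the table gives for 6 of these genes (Fbn1, Fbln1, Fbln2, Fbln5, Efemp2 and Ltbp4), 10 held a GC box. Windows of Fbln1, of Efemp2 and of Ltbp4 overlap in part, so a match can count in more than 1 window. The windows are thus fewer separate promoters than their number. The median share of G and C over all promoters was 52.7%, lower than in either Ltbp4 window shown. On either strand, 0 of the 12 windows held TATAAA, which 13.6% of all promoters hold. The table has no entry for Eln, Mfap4, Lox or Loxl1. A match is a description of these letters and not a measured binding site.

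The fibulins are secreted glycoproteins built largely of calcium-binding EGF-like domains, whose folds are held by cysteine bridges. Of the 4 measured here, Fbln5 and Efemp2 bind tropoelastin and lysyl oxidases during fibre assembly, and mice without Fbln5 have disorganised elastic fibres. Fbln5 (chr12:101746565-101819055, minus strand) had 41.85 TPM in replicate 1 and 45.7 TPM in replicate 2, from 8493 and 9049 counts. Efemp2, the gene for fibulin-4 (chr19:5473954-5482517, plus strand), had 95.2 TPM in replicate 1 and 92.1 TPM in replicate 2, from 4078 and 3693 counts. Its SD of 2.21 TPM, which is not scaled for level, was the smallest of the 10. Efemp2 was thus above Fbln5 in both libraries, by 2.27 and 2.02 times in replicates 1 and 2. Mus81 overlaps Efemp2 on the opposite strand and had 47.1 and 46.8 TPM in replicates 1 and 2.

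Fbln1 and Fbln2 encode larger fibulins found in vessel walls and basement membranes as well as on elastic fibres. Fbln1 (chr15:85205949-85286535, plus strand) had 103 TPM in replicate 1 and 128 TPM in replicate 2, from 8979 and 10778 counts. Fbln2 (chr6:91212455-91272540, plus strand) had 78.3 TPM in replicate 1 and 58.45 TPM in replicate 2, from 8926 and 6430 counts. Fbln1 was the higher in both libraries, by 1.31 times in replicate 1 and 2.19 times in replicate 2. Over protein-coding transcripts alone, the factors were 2.14 and 3.73.

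Fbln1 transcripts encode 2 proteins with different ends. Fbln1-202, which encodes the C form of fibulin-1, took 74.3% of the gene's TPM in replicate 1 and 76.3% in replicate 2. Fbln1-201, which encodes the D form, took 25.7% and 23.7% in replicates 1 and 2. The forms share their first 1703 coding bases and then part: Fbln1-202 ends in 1 coding exon with 352 own bases, and Fbln1-201 in 3 coding exons with 412. Fbln2 transcripts differed by a cassette exon, exon 9 (chr6:91259630-91259770, plus strand of mm10), of 141 bases or 47 codons. The transcript that holds it, Fbln2-201, took 9.83% of the gene's TPM in replicate 1 and 15.1% in replicate 2, and Fbln2-202, which skips it, took 50.95% and 42.9%. The sequences show what each choice adds. For Fbln1 the last 30 shared bases are in lower case and the first 60 own bases in capitals (chr15:85251445-85251504 for Fbln1-202 and chr15:85263259-85263318 for Fbln1-201, plus strand). For Fbln2 the whole cassette exon is in capitals between 15 bases of either neighbour, and it encodes 6 cysteines.
Fbln1-202: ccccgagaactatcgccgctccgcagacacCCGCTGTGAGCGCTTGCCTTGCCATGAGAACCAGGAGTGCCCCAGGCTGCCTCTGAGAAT
Fbln1-201: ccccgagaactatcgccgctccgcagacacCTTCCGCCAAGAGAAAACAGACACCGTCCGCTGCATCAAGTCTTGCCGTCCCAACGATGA
Fbln2 exon 9: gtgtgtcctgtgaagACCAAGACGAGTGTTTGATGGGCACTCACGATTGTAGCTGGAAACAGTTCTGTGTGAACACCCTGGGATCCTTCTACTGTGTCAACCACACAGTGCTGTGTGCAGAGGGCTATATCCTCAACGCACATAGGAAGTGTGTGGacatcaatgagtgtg

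The genes with EGF-like domains share a high cysteine content. Cysteine codons made up 12.6% of Fbn1, 10.5% of Fbln1, 9.75% of Ltbp4, 9.26% of Efemp2, 8.93% of Fbln5 and 8.60% of Fbln2, in each case more than in 98.1% to 99.2% of coding genes. In Mfap4, Loxl1 and Eln, which lack these domains, the shares were 2.33%, 1.98% and 0.233%. A feature of only some of the 10 genes is Arg-Gly-Asp, the tripeptide through which many matrix proteins bind integrins. It is encoded in the main transcripts of 4 of the 10 genes, and in 7.26% of coding genes, a share not matched for coding length. For 3 of the 4 the codons are shown in capitals, 12 bases from either end of each stretch; Arg is codon 1543 of Fbn1-201, 54 of Fbln5-201 and 28 of Mfap4-202, and the genes lie on chromosomes 2, 12 and 11 in that order.
Fbn1: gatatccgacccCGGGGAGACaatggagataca
Fbln5: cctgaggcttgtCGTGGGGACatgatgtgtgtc
Mfap4: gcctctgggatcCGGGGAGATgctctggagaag

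Apart from these forms, the genes were quantified mostly as 1 transcript. Eln, Fbln5 and Loxl1 have 1 transcript each in the files, and each of the other 7 genes had the same main transcript in both libraries, as did 85.8% of 7372 genes with 2 or more transcripts and at least 5 TPM. Of the 46 transcripts, 41 had counts in either library and 15 reached 10% of their gene's TPM. Fbn1-201 took 92.3% of Fbn1 TPM in replicate 1 and 85.9% in replicate 2. Mfap4-202 took 93.1% and 95.3% of Mfap4 TPM in replicates 1 and 2, and Mfap4-201, which keeps an intron of 72 bases (chr11:61487007-61487078), took 5.91% and 3.89%. Efemp2-204 took 74.0% and 67.8% of Efemp2 TPM in replicates 1 and 2. The other named form of this gene, the short transcript Efemp2-203 of 603 nt, took 8.99% in replicate 1 and 18.7% in replicate 2.

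Short retained-intron transcripts weighed most on the TPM of 2 genes, Fbln2 and Ltbp4. In Fbln2, transcripts not annotated as protein coding took 38.7% of TPM but 14.1% of counts in replicate 1, and 41.4% of TPM but 16.7% of counts in replicate 2. Fbln2-206, of 1612 nt, was the largest of these, with 28.1% and 35.1% of TPM in replicates 1 and 2. In Ltbp4 they took 15.3% of TPM but 1.38% of counts in replicate 1, and 17.6% of TPM but 1.72% of counts in replicate 2, mostly on Ltbp4-208, of 550 nt. That transcript alone had 13.0% and 14.4% of Ltbp4 TPM. To a lesser degree the same held for Fbn1 through its retained-intron transcript Fbn1-203. It took 4.13% of TPM but 0.755% of counts in replicate 1, and 9.61% of TPM but 1.84% of counts in replicate 2. Counting protein-coding transcripts only, Fbln2 stood at 48.0 TPM in replicate 1 and 34.2 TPM in replicate 2, and Ltbp4 at 373 and 464 TPM.

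**Figure D3:**
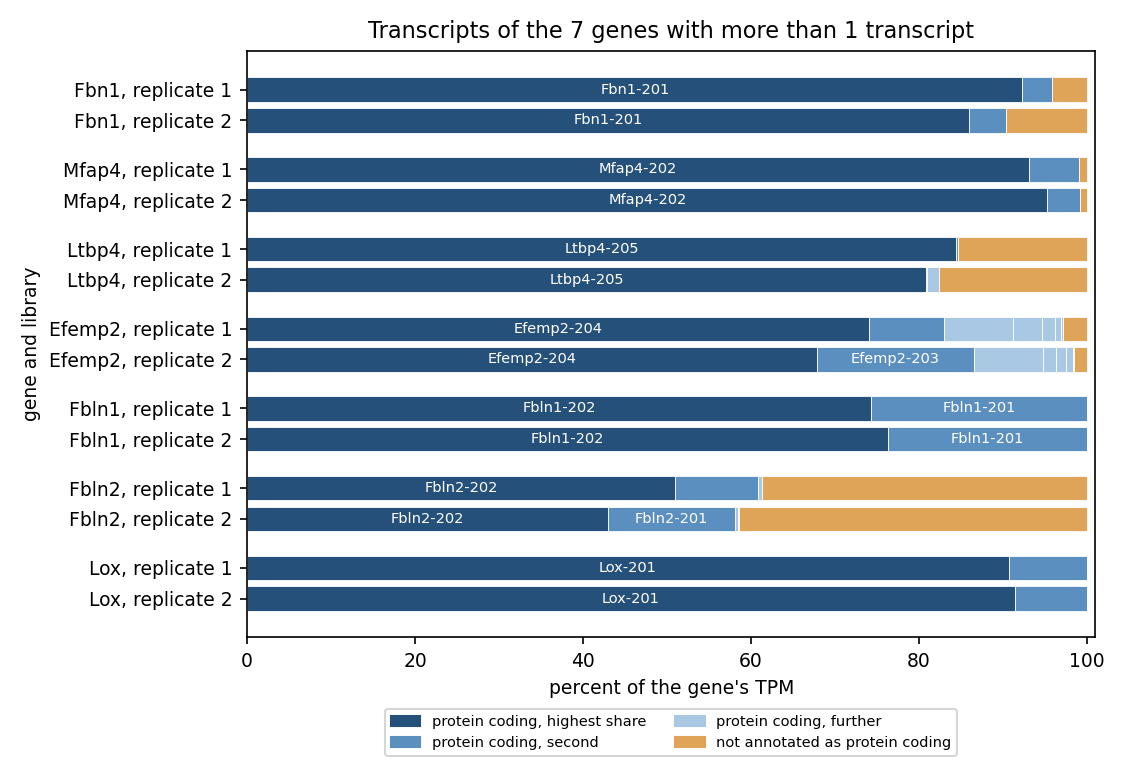
Share of each gene's TPM (percent) by transcript in replicates 1 and 2, for the 7 genes with more than 1 transcript, with protein-coding transcripts in blue shades by their order in replicate 1 and all others in orange. The main transcript is the same in both libraries for every gene shown, from 94.2% ± 1.53 of Mfap4 TPM to 46.9% ± 5.68 of Fbln2 TPM, and the orange part is largest for Fbln2.

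The lysyl oxidases Lox and Loxl1 oxidise lysines of tropoelastin, Lox those of collagens too. In mice, loss of Lox is fatal around birth with ruptured arteries, and loss of Loxl1 gives enlarged airspaces and pelvic prolapse. Loxl1 (chr9:58287738-58313186, minus strand) had 203 TPM in replicate 1 and 217 TPM in replicate 2, from 22965 and 23915 counts. Lox (chr18:52516067-52529867, minus strand) had 34.8 TPM in replicate 1 and 49.1 TPM in replicate 2, from 4372 and 6011 counts. Loxl1 therefore exceeded Lox by 5.83 times in replicate 1 and 4.41 times in replicate 2. Relative to their substrate, Loxl1 stood near Eln, with Eln at 0.932 and 0.679 times Loxl1 in replicates 1 and 2, and Lox stood well below it. Both proteins are poorer in cysteine than the fibulins, with 2.92% of the codons of Lox and 1.98% of those of Loxl1. Lox-201 carried 90.7% and 91.4% of Lox TPM in replicates 1 and 2.

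In order of mean TPM the genes ran Mfap4, Ltbp4, Loxl1, Eln, Fbln1, Efemp2, Fbln2, Fbln5, Lox and Fbn1. Neighbours in this order did not overlap in their ranges over the libraries, except Fbln5 at 43.8 ± 2.70 TPM and Lox at 42.0 ± 10.1 TPM. The order without replicate 1, that is in replicate 2 alone, changed the places of 2 genes, and Lox then stood above Fbln5. Over protein-coding transcripts alone, Fbln2 averaged 41.1 TPM and stood below Fbln5 and Lox, and the ranges of these 3 genes overlapped. With 2 libraries these are descriptions and not tests.

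Between the libraries none of the 10 genes differed as much as 2-fold. Ratios were taken as replicate 1 over replicate 2 from counts scaled for library composition, and a gene counted as 2-fold apart with a mean count of at least 50. Over all 14708 genes tested, 6.66% were 2-fold apart, 4.45% being higher in replicate 1 and 2.21% higher in replicate 2. Of the 10 genes, 1 was 1.5-fold or more apart, against 19.3% of all genes. This was Lox, with a log2 ratio of -0.72. Its scaled count was 1.65 times as high in replicate 2 as in replicate 1, with an exact 95% interval of 1.58 to 1.71 that covers counting error only. On the log2 TPM scale its ratio was -0.49, where none of the 10 genes was 1.5-fold apart, against 25.7% of all genes. Scaled by library size it was -0.59, at the edge of the 1.5-fold limit.

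The other 9 log2 ratios were 0.36 for Fbn1, 0.21 for Fbln2, 0.14 for Eln, -0.12 for Efemp2, -0.28 for Mfap4, -0.32 for Loxl1, -0.35 for Fbln5 and -0.52 for both Ltbp4 and Fbln1. Thus 3 genes were higher in replicate 1 and 7 in replicate 2, with a median of -0.30 beside a median of 0.00 over all genes tested (quartiles -0.27 and 0.29). Efemp2 changed sign under other scalings, to 0.02 by library size and 0.05 by TPM, but these scalings moved the median of all genes to 0.14 and 0.21, and Efemp2 stayed below it. The ratio also moved with the level of a gene. It had a median of -0.11 over the 4441 genes between 20 and 100 TPM, where the 5 elastic fibre genes had a median of -0.12, and of -0.21 over the 1341 genes above 100 TPM, where the other 5 had a median of -0.32. The exact interval lay on 1 side of 1 for all 10 genes and for 72% of all genes tested. The ratio was within 0.41, the robust SD over all genes, for 7 of the 10 and for 66.7% of all genes.

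**Figure D4:**
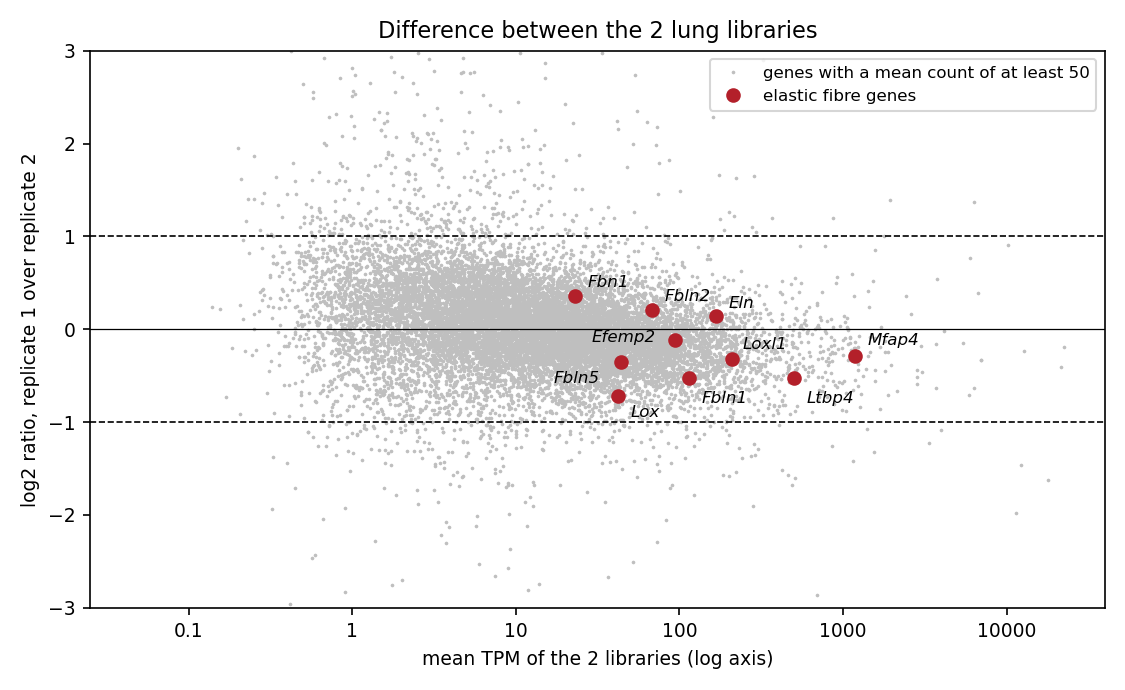
Log2 ratio of replicate 1 over replicate 2 against the mean TPM of both libraries (log axis) for genes with mean counts of 50 or more (grey) and the 10 elastic fibre genes (red), with dashed lines at a 2-fold difference and genes beyond a log2 ratio of 3 in either direction not drawn. All red points lie between the dashed lines, from 0.36 for Fbn1 to -0.72 for Lox, and the grey cloud itself drifts below 0 at high TPM.

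Markers of fibroblasts and smooth muscle, which are known to make elastic fibres, and of other cell types were present in both libraries. All 12 fibroblast markers (Inmt highest, Lum lowest) were above 1 TPM, with sums of 2315 TPM in replicate 1 and 2307 TPM in replicate 2. Their ratios were above 0 for 4 and below 0 for 8, with a median of -0.16, and Lum was 2-fold higher in replicate 1. All 9 smooth muscle markers (Acta2 highest, Myocd lowest) were above 1 TPM, with sums of 1260 TPM in replicate 1 and 871 TPM in replicate 2. Of these, 6 were above 0 and 3 below, with a median of 0.18. The 6 mesothelium markers, from Krt19 to Wt1, summed to 453 and 489 TPM in replicates 1 and 2. Krt19 alone made up 243 and 259 TPM of these sums. Of the 6 markers, 1 was above 0 and 5 below, with a median of -0.56, and Wt1 was 2-fold higher in replicate 2. The 6 pericyte markers, from Pdgfrb to Rgs5, summed to 373 and 319 TPM in replicates 1 and 2, with 2 above 0, 4 below and a median of -0.06, and Rgs5 was 2-fold higher in replicate 1. The 6 endothelium markers, from Egfl7 to Kdr, summed to 3529 and 3653 TPM in replicates 1 and 2, with 2 above 0, 4 below and a median of -0.30. The alveolar epithelium markers had 1 above 0, 5 below and a median of -0.37. Adipose tissue markers, from Cidec to Lep, were split, with 2 of 7 being 2-fold higher in replicate 1 and 4 of 7 in replicate 2. The 2 were Ucp1, at 158 and 1.94 TPM in replicates 1 and 2, and Cidea, at 26.8 and 3.48 TPM. The 4 were Adipoq, Plin1, Cidec and Retn. The part of these cells, and of the squamous, muscle and blood RNA, in the differences between libraries was not tested. In whole tissue, fewer cells of a type and less RNA per cell cannot be told apart.

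A further 35 genes of elastic fibre assembly and turnover, in 5 lists, were measured in the same libraries, and 29 of them were above 1 TPM in both libraries. Of the 33 with enough counts, 1 was 2-fold apart, against 6.66% of all genes tested. This was Fbln7, a distant fibulin relative with 96 counts in replicate 1 and 34 in replicate 2 and a log2 ratio of 1.19. The median log2 ratio of the 33 was -0.19, with 10 above 0 and 23 below.

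Among the 14 microfibril and fibulin relatives, Adamts10, a metalloprotease that binds fibrillin, was highest with 208 TPM in replicate 1 and 224 TPM in replicate 2. Mfap2, a small protein bound along fibrillin microfibrils, followed with 154 TPM in replicate 1 and 178 TPM in replicate 2. Emilin3 was lowest, at 0.080 and 0.030 TPM in replicates 1 and 2. Of the 13 tested, 3 were above 0 and 10 below, with a median of -0.25. Adamts10 and Mfap2 thus stood near Loxl1 and Eln in level and well above Fbn1.

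Of the 7 cross-linking and maturation enzymes, Furin, a proprotein convertase that processes fibrillin-1, was highest with 93.9 TPM in replicate 1 and 106 TPM in replicate 2. Bmp1, which cuts the propeptide from Lox, had 41.35 TPM in replicate 1 and 40.7 TPM in replicate 2. Its relative Tll1 was lowest, with 0.59 and 0.90 TPM in replicates 1 and 2. The other lysyl oxidase relatives in the list, Loxl2, Loxl3 and Loxl4, were named after their values were seen and averaged at most 14.4 TPM, below both Lox and Loxl1. The 7 ratios were above 0 for 2 genes and below for 5, with a median of -0.20.

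The TGF-beta ligands were led by Tgfb1 with 59.3 TPM in replicate 1 and 65.1 TPM in replicate 2. Tgfb3 had 30.05 and 23.1 TPM and Tgfb2 4.97 and 5.47 TPM in replicates 1 and 2. Ltbp4 stood above all 3. Their median log2 ratio was -0.18.

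Of 8 proteases able to degrade elastin, the gelatinase gene Mmp2 was highest with 99.0 TPM in replicate 1 and 107 TPM in replicate 2. The cathepsin gene Ctss followed with 72.8 TPM in replicate 1 and 44.5 TPM in replicate 2. The neutrophil elastase gene Elane was lowest, with 21 counts in replicate 1 and 3 in replicate 2, too few for the count minimum. This was the only one of the 5 lists with a median above 0, at 0.37, with 4 of the 7 tested higher in replicate 1. The genes of the elastin receptor complex, through which cells sense elastin fragments, were led by Ctsa, and their RNA does not measure the complex. Ctsa had 255 TPM in replicate 1 and 273 TPM in replicate 2, and Neu1 had 40.4 and 37.6 TPM. The other member, Glb1, had 23.7 TPM in replicate 1 and 23.1 TPM in replicate 2. All 3 ratios were below 0, with a median of -0.19, but their signs depended on the scaling. By library size only Ctsa was above 0, at 0.01. On the log2 TPM scale Glb1 (0.04) and Neu1 (0.10) were above 0 and Ctsa was not. These scalings moved the median of all genes to 0.14 and 0.21.

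**Figure D5:**
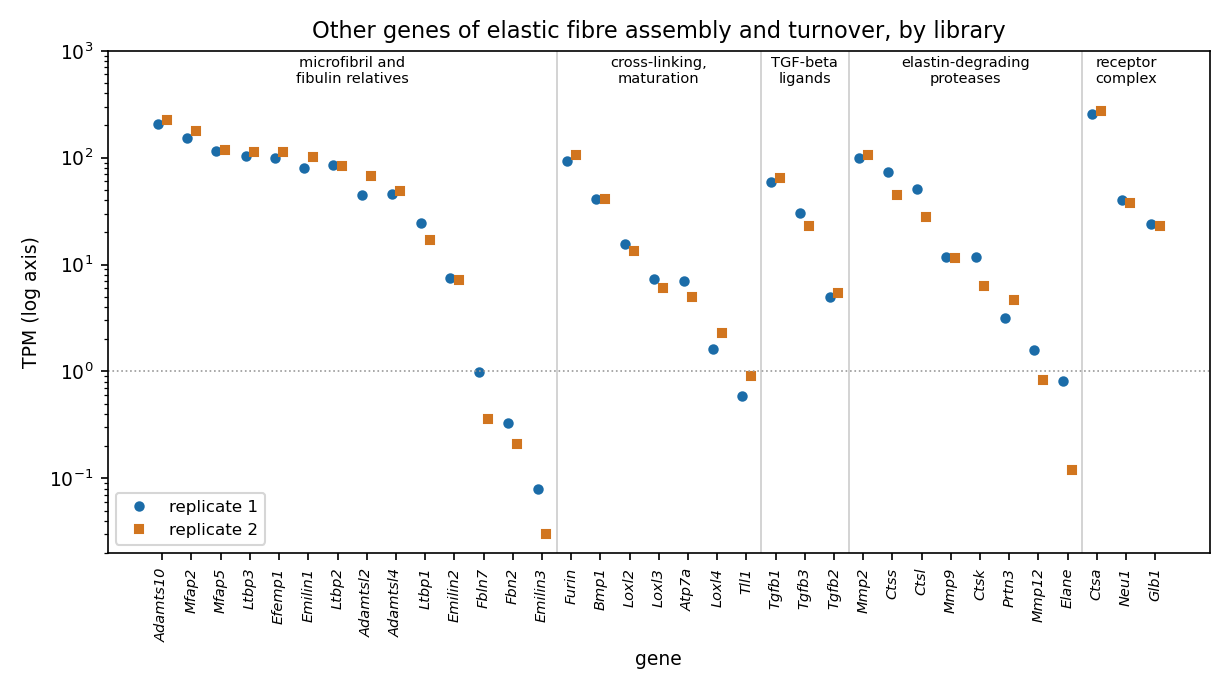
TPM (log axis) of 35 further genes of elastic fibre assembly and turnover in replicate 1 (circles) and replicate 2 (squares), in 5 lists by role and ordered by mean TPM within a list, with a dotted line at 1 TPM. Ctsa and Adamts10 are highest, Emilin3 lowest, and the libraries lie close together for most genes above 1 TPM.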

How the data were processed

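Per the file headers, each library has deposited expected counts for genes and transcripts, which are estimated and unscaled. The deposited TPM values sum to 1000000 over all rows of a library, spike-in rows among them. Deposited FPKM values carry the authors' scaling for length and depth. The authors also deposited, for every transcript, its percent of the TPM of the gene. The deposited TPM interval bounds, a signal column of unstated level, were not used for results. Build mm10 and GENCODE release M4 come from the deposited file lists; aligner and quantifier were not given in the sources used here.

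Symbols, transcripts and coding sequences came from a later GENCODE release on mm10, with 42462 of 43346 gene identifiers matched. Another 26248 rows, with no gene or spike-in name, had 0 and 2 counts in replicates 1 and 2 and were left out. Spike-ins took 1.44% and 1.03% of counts. Log2 ratios are replicate 1 over replicate 2 of TMM-scaled CPM from rounded expected counts with a prior count of 2 (edgeR 4.0.16, R 4.3.3), tested on simulated data. Exact Clopper-Pearson 95% intervals cover counting error only, and at these depths are narrow. DESeq2 1.42.0 gave alternative scaling; the rest ran in Python 3.11.15 with scipy 1.17.1, pandas 2.3.3, numpy 2.4.6 and matplotlib 3.10.9.

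With 1 group of 2 libraries no test was made and no p-value is given. The members and lists were chosen with earlier results of these data known. The genes named are all members, their transcripts at 10% of TPM or more, every further gene 2-fold apart, the 2 highest and the lowest of each list of further genes, and the highest and lowest marker of a list. No gene was sought for a like pattern, which 2 libraries cannot show. Medians by level, the order over protein-coding transcripts and the 1.5-fold limit under other scalings were added after seeing the data. Transcripts below 10%, Loxl2, Loxl3, Loxl4 and the adipose markers named as 2-fold apart are outside the rule. They were picked with their values seen. Alternatives covered scaling, count minimum, fold, prior count, unit and leaving out either library. Contig and junction lists on mm9 were not used here, and 1 sequence stretch is not reported here.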

Additional observations from a re-analysis of the deposited data

How the results depend on the processing

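Rescaling TPM without the squamous, skeletal muscle and erythroid markers gave a mean summed level of 2575 TPM, against 2453 TPM before. The spread between libraries after this rescaling is not given here. In the order of levels, 0 genes changed place without replicate 2 and 2 without replicate 1, and 3 did over protein-coding transcripts only. At 1.5-fold 1 of the 10 genes was called, also by library size and with DESeq2 size factors, and 0 by TPM, and at a minimum mean count of 10 the further genes called were 2, Elane joining Fbln7. Shares of counts in place of shares of TPM moved the main transcript of Fbln1 to 64.6%, Fbln2 to 66.3%, Efemp2 to 82.2%, Ltbp4 to 98.1%, Mfap4 to 97.1% and Lox to 89.0%, since TPM divides counts by length. The other 19 summary values and 92 single-gene values under the alternatives kept their direction and side of the threshold or moved within the replicate spread, the sign of Efemp2 being an exception by library size and TPM. Over all genes, 66.8% of 2-fold calls were higher in replicate 1, against 77.7% by library size and 80.9% by TPM. No paired analysis was possible because there is 1 group. Each of the 10 genes had 3693 counts or more per library.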
